A study of Homo sapiens with 96 samples.

Results

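Very long intergenic non-coding RNAs (vlincRNAs) held 368 of the 4149 A-to-I editing sites that the authors list for K562 cells, a human line derived from a chronic myeloid leukemia. Most of the listed sites are predictions from RNA-seq reads. The authors tested a part of them by Sanger sequencing, and some of those tested failed. The members were taken as the sites whose genomic element in the list is vlincRNA, in both classes: 116 annotated sites, which the public editing databases already hold, and 252 unannotated ones. By class, vlincRNAs held 3.67% of annotated sites (95% Wilson interval 3.07 to 4.38) and 25.5% of unannotated sites (22.9 to 28.3). Intervals on shares cover counting error only, and neighbouring sites are not independent. The authors kept unannotated sites of introns and vlincRNAs on the call of RED-ML but asked for a call by SPRINT as well elsewhere, so the unannotated share by element is set in part by that selection. Sites on the same chromosome and strand were joined into loci where neighbours lay within 100000 bases, which gave 96 loci on 18 chromosomes.

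vlincRNAs are long transcripts made from stretches of the genome between known genes, retained mostly in the nucleus, and many were first described in cancer and stem cells. ADAR enzymes convert adenosine to inosine in double-stranded RNA, and inosine is read as guanosine in sequencing, so an edited site appears as an A-to-G change. Double-stranded RNA forms readily where a transcript carries inverted copies of a sequence, and guanosine just before the adenosine is known as a poor context for ADAR.

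The measurements were editing levels, fractions from 0 to 1, in 96 RNA-seq samples of rRNA-depleted, strand-specific libraries of K562 cells or their derivatives. By the internal identifiers in the study's supplement, these formed 10 library sets. The time course of 20 samples had DMSO (the vehicle), imatinib (a BCR-ABL kinase inhibitor), etoposide (a topoisomerase II inhibitor) or romidepsin (a histone deacetylase inhibitor) for 6, 12, 24, 36 and 48 h. In the actinomycin D chase of 19 samples, 6 h of DMSO, etoposide, SN-38 (a topoisomerase I inhibitor), talazoparib (a PARP inhibitor) or cyclophosphamide (a DNA alkylating agent) preceded actinomycin D, which blocks transcription, for 0 to 6 h. The alpha-amanitin set of 11 samples had 6 h of DMSO or etoposide before 0 to 6 h of alpha-amanitin, an inhibitor of RNA polymerase II, besides alpha-amanitin alone for 2 and 6 h and DMSO for 2 h. The wash-out set of 9 samples was taken 0, 2 and 6 h after removal of DMSO, SN-38 or etoposide. The pretreatment set of 10 samples had 3 h of DMSO or of AZ-20, KU-60019 and NU7441 together (kinase inhibitors of the DNA damage response), then 3 or 6 h of a second agent: DMSO (only after DMSO), talazoparib, mirin, SN-38 or etoposide. The engineered lines received doxycycline or water for 2 to 13 days. A set of 12 samples, called the lentiviral lines here, had lines labelled as overexpressing Cas9, LINE, CSB, LIG3 or MRE11A. A set of 4 samples had a line labelled as overexpressing AsiSI. The paper counts 16 samples transduced with lentiviral vectors, so the name marks a library set and does not set the AsiSI line apart in kind. The remaining sets were rapamycin and Torin1 (mTOR inhibitors; 4 samples), romidepsin for 3 and 6 h (2 samples), and 5 samples with actinomycin D alone, DMSO for 2 or 6 h or no treatment. Nearly every condition had 1 sample, and the sources used here do not state whether the engineered lines are single clones.

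The read depth at each site is not given, so a value of 0 does not separate an unedited transcript from one without reads. As a proxy for what a sample could show, between 30 and 633 of all listed sites had a level in a sample. Etoposide and romidepsin names of the time course conflict with the tables of Sanger-tested sites: of 39 tested sites with a stated level, 37 had that level (within 0.001) in the column of the other drug and 0 in the named column, among them 3 of 3 vlincRNA sites. These columns are therefore called by their labels below. Where the list and labels name 2 samples of 1 condition, the vlincRNA sites with a level numbered 7 and 15 (DMSO, 2 h), 28 and 20 (DMSO, 6 h), and 48 and 5 (labelled romidepsin, 6 h), with 3, 10 and 0 sites shared. The sample with 5 is a time course column under this conflict, and the column labelled etoposide at 6 h had 27. The pairs come from different library sets.

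The sites were concentrated in few loci. Of the 96 loci, 46 held 1 site, 39 held 2 to 9, and 11 held 10 or more. These 11 loci held 178 sites (48.4%), and the richest held 25. Annotated sites alone made up 19 loci and unannotated ones alone 60, with both classes in 17. A locus is called here by an overlapping gene with a symbol on its strand in GENCODE release 44 or otherwise by the nearest protein-coding gene, as a label of position and not of function. By overlap, the LINC00534 locus spanned chr8:90303104-90331376 (plus strand, GRCh38; 25 sites), the LINC02476 locus chr7:119537801-119785507 (minus; 17 sites), the LINC01608 locus chr8:110970774-110972181 (minus; 16 sites) and the PRELID2 locus chr5:145463986-145562772 (minus; 10 sites). LINC00534, LINC02476 and LINC01608 are long non-coding RNA genes, and PRELID2 is protein-coding. By the nearest coding gene, the SI locus spanned chr3:163515582-163518074 (plus; 24 sites), the ADCYAP1 locus chr18:1665838-1669736 (plus; 17 sites), the SEMA3D locus chr7:84756208-84834465 (minus; 16 sites), the CDH18 locus chr5:19004328-19091834 (minus; 14 sites), the COX7C locus chr5:85445044-85637673 (minus; 14 sites), the FAT4 locus chr4:126433249-126472751 (minus; 13 sites) and the B3GNT2 locus chr2:62304885-62305736 (plus; 12 sites). The nearest coding gene lay between 80154 bases (B3GNT2) and 1460824 bases (SI) from these 7 loci. Over all 96 loci the median distance to a coding gene was 197918 bases, with 26 loci more than 500000 bases away.

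**Figure D1:**
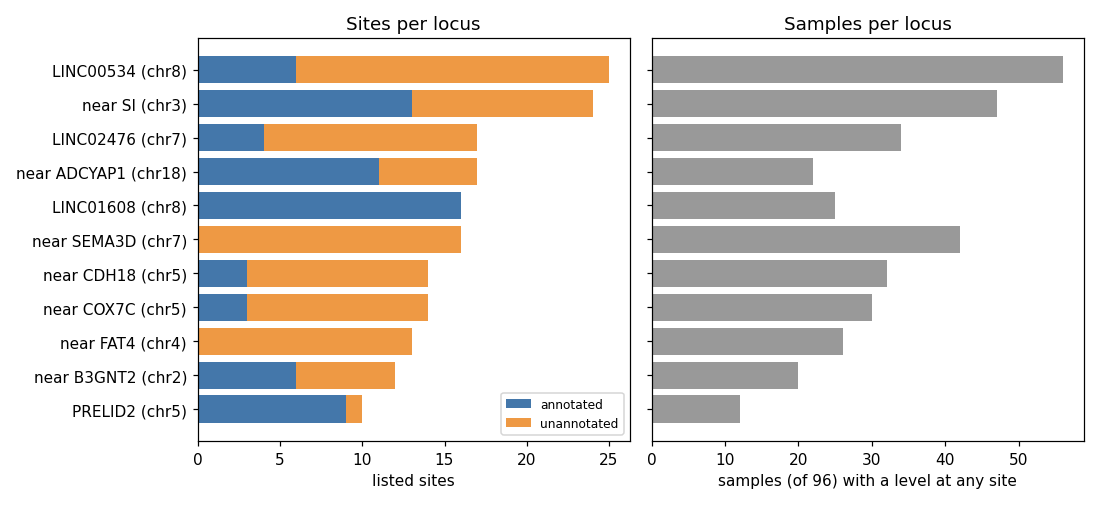
Left, the number of listed sites in each of the 11 loci with 10 or more vlincRNA sites, split into annotated and unannotated sites. Right, the number of the 96 samples with a level at any site of the locus, from 56 for LINC00534 to 12 for PRELID2.

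The sequences around the most often detected site of each of these loci, leaving out LINC00534 and LINC01608, show where the listed adenosines sit. Each is a 41-base stretch of GRCh38 read 5′ to 3′ on the strand of the transcript, in lower case, with every listed site in capitals and the named site at the centre.
SI locus (chr3:163515562-163515602, plus strand): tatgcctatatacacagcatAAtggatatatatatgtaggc
FAT4 locus (chr4:126433294-126433334, minus strand): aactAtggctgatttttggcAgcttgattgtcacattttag
CDH18 locus (chr5:19004359-19004399, minus strand): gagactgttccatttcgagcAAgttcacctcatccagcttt
COX7C locus (chr5:85528416-85528456, minus strand): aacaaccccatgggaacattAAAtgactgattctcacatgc
SEMA3D locus (chr7:84834445-84834485, minus strand): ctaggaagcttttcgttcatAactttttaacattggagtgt
LINC02476 locus (chr7:119559529-119559569, minus strand): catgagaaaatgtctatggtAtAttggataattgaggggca
ADCYAP1 locus (chr18:1668348-1668388, plus strand): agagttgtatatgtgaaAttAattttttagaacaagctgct
B3GNT2 locus (chr2:62305576-62305616, plus strand): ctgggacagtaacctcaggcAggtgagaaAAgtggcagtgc
PRELID2 locus (chr5:145562417-145562457, minus strand): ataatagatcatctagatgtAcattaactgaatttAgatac
Listed sites often came as neighbours. The COX7C stretch carried 3 listed sites in a row and the SI and CDH18 stretches 2 in a row, while the SEMA3D stretch carried 1 site only. Of the 368 sites, 273 lay within 100 bases of another listed site on the same strand, in 75 runs. In unannotated sites, 70.6% of vlincRNA sites (64.6 to 75.9) and 31.0% of intronic sites (27.4 to 34.8) lay in such runs, and in annotated sites 81.0% (73.0 to 87.1) and 71.0% (69.1 to 72.8).

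The densest run of vlincRNA sites, with LINC00534 and LINC01608 left aside, lay in the SI locus and had 12 sites, 7 annotated and 5 unannotated, within 296 bases that held 99 adenosines on the transcribed strand. A stretch of 191 bases upstream on the same strand matched the first part of the run as a reverse complement, over an alignment of 193 positions with 88.6% identity. The matched arm, chr3:163515873-163516063, held 8 of the 12 sites, and it began 115 bases past the end of its partner. The run and the partner are shown because both carried listed sites, with 5 in the partner, again in capitals.
Run (chr3:163515876-163516175, plus strand): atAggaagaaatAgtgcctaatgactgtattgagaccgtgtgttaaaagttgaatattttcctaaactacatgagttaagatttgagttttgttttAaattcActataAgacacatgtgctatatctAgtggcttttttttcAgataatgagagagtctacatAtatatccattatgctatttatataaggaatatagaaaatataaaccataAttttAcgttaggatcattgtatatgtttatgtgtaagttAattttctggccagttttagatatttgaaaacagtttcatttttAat
Partner (chr3:163515568-163515758, plus strand): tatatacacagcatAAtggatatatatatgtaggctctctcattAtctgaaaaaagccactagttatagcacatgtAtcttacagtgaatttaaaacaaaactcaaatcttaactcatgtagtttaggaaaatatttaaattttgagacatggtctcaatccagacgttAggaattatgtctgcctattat
The sites of the run had a level in 1 to 20 samples each. The site of the SI locus with a level in most samples, at position 163515582, lay in the partner.

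Such inverted matches were common near vlincRNA sites. For each site, the site with 100 bases to either side was searched against the sequence up to 2500 bases to either side for a reverse-complement match of at least 50 bases at 75% identity. The match could lie anywhere in this window without covering the site, and the searched sequence included the window itself. A match was found for 273 of 368 sites (74.2%, 95% Wilson interval 69.5 to 78.4), against 9 of 368 (2.45%, 1.29 to 4.58) for windows moved by 5000 bases. Annotated sites had one in 87.9% (80.8 to 92.7) and unannotated ones in 67.9% (61.9 to 73.3). At intronic sites the shares were 76.6% (74.7 to 78.3) and 42.0% (38.2 to 45.9), with 13.3% and 15.4% in moved windows. The unannotated vlincRNA share thus stood above the unannotated intronic share, but sites of a run share their sequence. With 1 site per run, a match was found for 107 of 170 vlincRNA sites (62.9%, 55.5 to 69.8) and 886 of 1554 intronic sites (interval 54.5 to 59.5%), with intervals that overlapped. By class, a split chosen after the data had been seen, unannotated sites then had 56.2% (47.3 to 64.7) and 32.4% (28.4 to 36.7), and annotated ones 79.6% (66.4 to 88.5) and 67.9% (65.1 to 70.7), in vlincRNAs and introns. The authors' filter kept the sites themselves outside annotated repeats, and whether the windows around them held repeats was not tested.

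**Figure D2:**
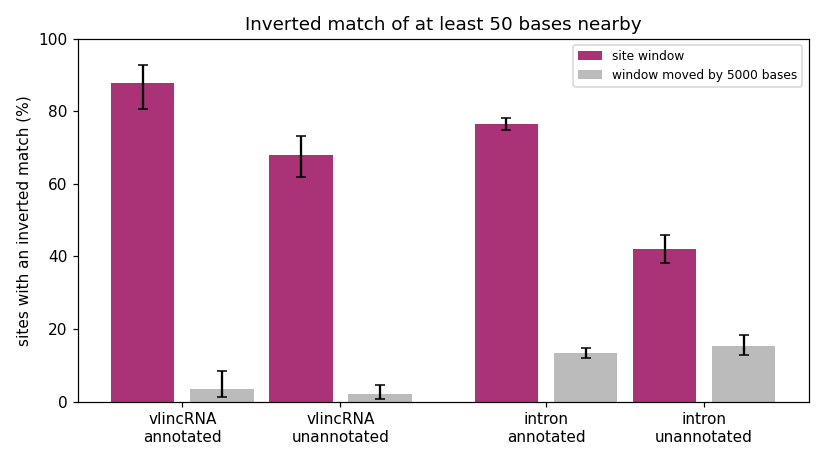
Percent of sites (y axis, with 95% Wilson intervals) whose window of 100 bases to either side had an inverted match of at least 50 bases within 2500 bases, by genomic element and class, with the same search in windows moved by 5000 bases. The 4 bars of site windows stand at 87.9, 67.9, 76.6 and 42.0%, and each moved window is lower.

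Among the 11 loci, the windows of all sites had a match in the SI (24 of 24), LINC01608 (16 of 16), COX7C (14 of 14), FAT4 (13 of 13), B3GNT2 (12 of 12) and PRELID2 (10 of 10) loci. Nearly all had one in the LINC00534 (24 of 25) and ADCYAP1 (16 of 17) loci. The LINC02476 locus had 14 of 17 and the CDH18 locus 9 of 14. The SEMA3D locus differed from the others in that 1 of its 16 sites had a match. Matches farther than 2500 bases away were not searched. The highest identity was 98.3% in the CDH18 locus, where the arms lay 1937 to 1995 bases apart.

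The base before the site was U in 53.5% of vlincRNA sites (48.4 to 58.6), A in 31.5%, C in 12.5% and G in 2.45% (1.29 to 4.58). Unlisted adenosines of the same strand within 100 bases had U before them in 25.6% and G in 18.7%. The base after was G in 37.5% of sites (32.7 to 42.6) and in 20.5% of unlisted adenosines. All 368 sites had adenosine as the reference base. G came before 2.59% of annotated and 2.38% of unannotated vlincRNA sites, whereas in introns it came before 2.63% of annotated (2.04 to 3.38) and 8.46% of unannotated sites (6.54 to 10.9). The interval of unannotated vlincRNA sites (1.10 to 5.10) did not overlap that of unannotated intronic sites. With 1 site per run, also chosen after the data had been seen, G came before 1.65% of unannotated vlincRNA sites (0.454 to 5.83) and 9.41% of unannotated intronic sites (7.11 to 12.4).

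In the newer annotation, 214 of the 368 sites lay in an intron and 2 in an exon of a gene on the same strand, 9 were antisense to a gene only and 143 lay in no gene. The same-strand genes were lncRNA genes for 189 sites and protein-coding for 25. The authors used GENCODE release 41 and gave vlincRNAs only sites outside introns of known genes, so these counts describe release 44 and do not correct the list.

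Levels were recorded for 364 of the 368 sites, and the other 4 were found by Sanger sequencing only. RED-ML alone had detected 104 of the 364, RED-ML and SPRINT 103, all 3 methods (REDItools, RED-ML and SPRINT) 96, REDItools and RED-ML 54, SPRINT alone 6, and REDItools and SPRINT 1. Among unannotated sites, all 3 methods had detected 24.2% of vlincRNA sites (19.3 to 29.9) and 10.8% of intronic sites (8.60 to 13.5).

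Detection was sparse. Of the 34944 values of 364 sites in 96 samples, 1502 (4.30%) were above 0. A level was found in no sample for 22 sites, in 1 sample for 91 and in 10 or more samples for 35, of which 15 were annotated and 27 lay in the 11 named loci. The authors' filter of at least 2 samples ran over 130 samples, so a site may have passed it through samples not used here. The levels above 0 had a median of 0.429 (quartiles 0.222 and 0.5), and 17 of them were 1. These levels passed through a filter that asks for a highest level above 0.2, so their lower end is not that of all editing.

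The sites with a level in most samples were dominated by LINC00534. Its site at chr8:90321939 had a level in 38 samples, with a lowest of 0.194, a median of 0.5 and a highest of 0.9. The site at chr8:90328820 followed with 33 samples (0.235, 0.5 and 1). The sites at chr8:90331350 and chr8:90331346, 4 bases apart by position, had levels in 29 samples (0.0833, 0.314 and 0.8) and 28 samples (0.143, 0.322 and 1). These 2 neighbours thus had lower medians than the first pair. The fifth, at chr7:10661130 on the minus strand in the lncRNA gene MGC4859, had levels in 25 samples, from 0.131 through a median of 0.327 to 0.817.

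At the site chr8:90321939, the time course gave 0.5 to 0.824 in 11 of 20 samples, and the wash-out set 0.194 to 0.578 in 5 of 9. The rapamycin and Torin1 set gave 0.305 to 0.576 in 4 of 4 samples, the actinomycin D chase 0.330 to 0.9 in 5 of 19 and the alpha-amanitin set 0.342 to 0.707 in 5 of 11. These ranges overlapped between every 2 of these sets.

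The most detected sites of the other named loci had medians from 0.3 to 0.750, on both sides of the 0.5 at the LINC00534 top site. The CDH18 site at chr5:19004379 had levels in 22 samples, from 0.273 through a median of 0.738 to 0.909. The COX7C site at chr5:85528436 also had 22 samples, from 0.2 through 0.5 to 1. The FAT4 site at chr4:126433314 had 21 samples, from 0.4 through 0.714 to 1. The SI site at chr3:163515582 had 21 samples too, from 0.215 through 0.5 to 0.833. The LINC01608 site at chr8:110972152 had 18 samples, from 0.196 through 0.464 to 0.8, and the SEMA3D site at chr7:84834465 had 14, from 0.130 through 0.439 to 0.8. The CDH18 and FAT4 sites therefore had the highest medians of these 6 sites, and all 6 ranges overlapped. In the B3GNT2, ADCYAP1, LINC02476 and PRELID2 loci the top site had a level in 9, 7, 6 and 5 samples, with medians of 0.750, 0.3, 0.570 and 0.6.

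Against intronic sites of the same class, detection and levels overlapped widely. The share of annotated sites with a level was lower in vlincRNAs than in introns in 59 of 96 samples and higher in 37, with medians of 3.45% and 4.89% and a median difference of −1.26 percentage points (SD over samples 5.34). For unannotated sites it was higher in vlincRNAs in 54 samples and lower in 42, with medians of 3.63% and 2.62% and a median difference of 0.33 (SD 3.92). Without the LINC00534 locus, unannotated sites were higher in vlincRNAs in 47 samples and lower in 49 (median difference −0.12). Annotated ones were then higher in 23 and lower in 73 (median difference −1.63). The differences in both classes were smaller than the spread of single samples, which does not measure the error of a median. The median level per sample, in samples with at least 5 sites of each kind, differed by a median of 0 in both classes (SD 0.131 over 45 samples and 0.136 over 65).

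The number of vlincRNA sites with a level ran from 0 to 48 per sample, with a median of 14 (mean 15.6 ± 11.9, SD, n = 96). The engineered lines were low, with 0 to 13 sites and a median of 2 over 16 samples, against 0 to 48 and a median of 17 in the other 80. The same held for intronic sites, with medians of 37.5 and 153.5, so vlincRNAs made up a median of 4.03% of a sample's sites in the engineered lines and 6.01% in the others. Of the 7 samples with 0 vlincRNA sites, 4 were of engineered lines and 3 had received etoposide. The romidepsin pair had 34 and 48 sites, the pretreatment set 18 to 35, and the rapamycin and Torin1 set 11 to 32. Library set and treatment cannot be told apart in such contrasts between sets, and the part of depth was not tested.

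**Figure D3:**
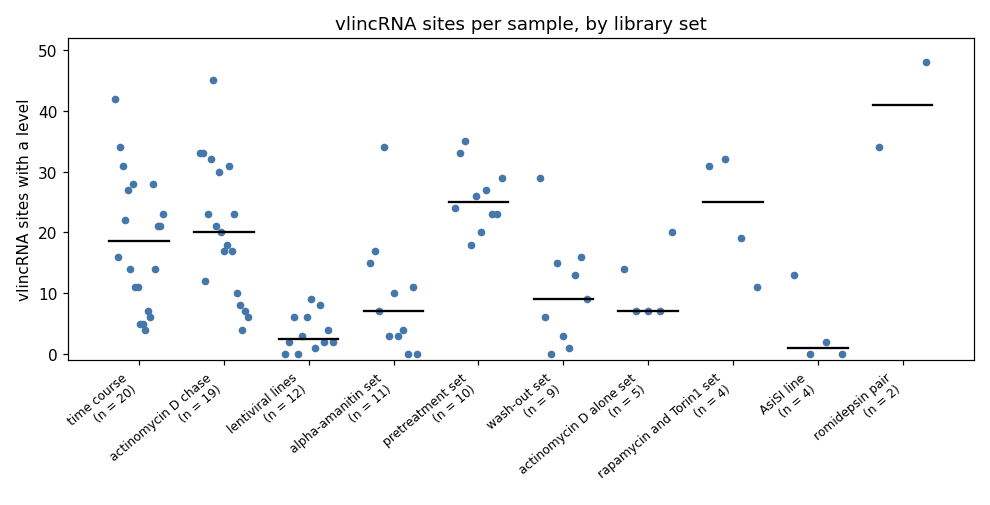
Number of vlincRNA sites with a level in each of the 96 samples (points), by library set, with the median of the set as a line. The lentiviral lines (0 to 9) and 3 of the 4 AsiSI samples (0 to 2) sit at the bottom, and the romidepsin pair (34 and 48) at the top.

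Loci differed in where they were detected. LINC00534 had a level in 56 samples, among them 2 of the 16 engineered-line samples, with up to 15 of its 24 sites with levels in 1 sample (labelled DMSO, 6 h). The SI locus had a level in 47 samples, among them 8 of the 16 engineered-line samples. There it gave 28 of the 58 vlincRNA detections summed over samples, all of them in the 12 samples of the lentiviral lines. It also had the most sites of the 11 loci in the romidepsin pair, with 9 sites at 3 h and 12 at 6 h. The SEMA3D locus had a level in 42 samples, 16 of them among the 19 of the actinomycin D chase. The CDH18 locus was found in 12 of the 20 time course samples, with 9, 8 and 6 sites at 24, 36 and 48 h in the columns labelled etoposide and 0 in all 5 columns labelled romidepsin. LINC01608 had 9 sites in the column labelled etoposide at 6 h and 8 at 24 h, 8 in the romidepsin pair at 6 h, and 0 in the 16 engineered-line samples.

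**Figure D4:**
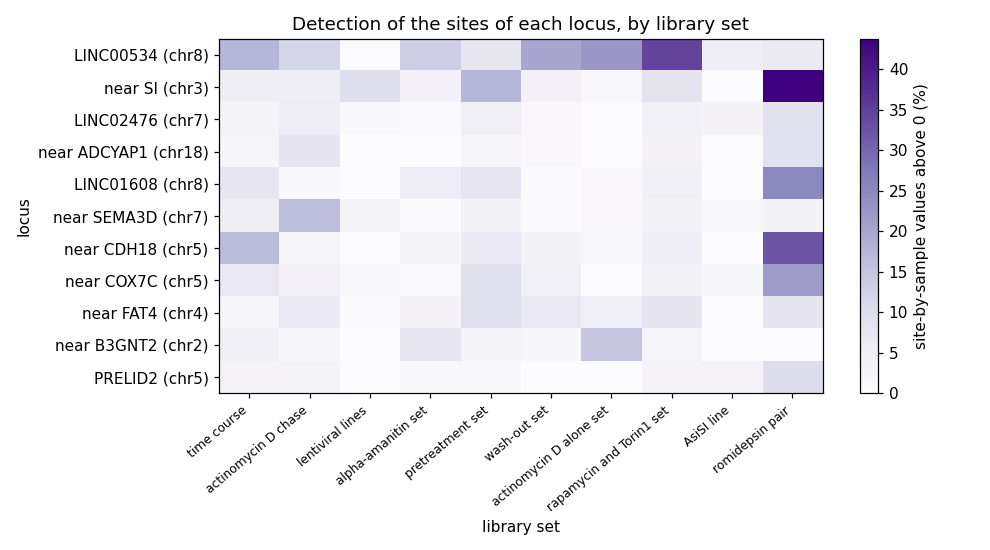
Percent of all site-by-sample values above 0 for each of the 11 named loci (rows) in each library set (columns), darker where more values are above 0. The SI locus in the romidepsin pair (43.8%), LINC00534 in the rapamycin and Torin1 set (34.4%) and CDH18 in the romidepsin pair (32.1%) are the darkest cells.

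The comparisons between conditions asked whether the number of sites with a level in a locus differed beyond the spread between samples. Each of 410 loci of the whole list with at least 3 sites with levels, 33 of them vlincRNA loci, was tested by a two-sided exact permutation test over samples, with Benjamini-Hochberg adjustment over all 410. The samples of an arm differ in agent or time, so their spread is not that of replicate cultures.

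In the actinomycin D chase, vlincRNA sites with a level were fewer at 6 h than at 0 h after each first agent. The number with a level at 0 h was 33 after DMSO, 33 after talazoparib, 32 after cyclophosphamide, 23 after etoposide and 12 after SN-38. At 6 h it was 10, 8, 6, 7 and 4, so the 0 h and 6 h values did not overlap. The DMSO chase had 33, 45, 30, 17 and 10 sites at 0, 1, 2, 4 and 6 h. The etoposide chase had 23, 21, 18, 23 and 7 at these times, and the SN-38 chase 12, 17 and 4 at 0, 2 and 6 h. Averaged over 2, 4 and 6 h, the number was lower than at 0 h after all 5 first agents, and so was the percent of the sample's sites. Averaged likewise, intronic sites were lower after 3 and higher after 2 of the 5, with means of 166.2 ± 30.3 (SD, n = 5) at 0 h and 167.3 ± 59.2 (n = 12) later. At 6 h alone, intronic sites too were fewer than at 0 h after DMSO (92 against 160) and talazoparib (101 against 139). The same held after cyclophosphamide (103 against 153) and etoposide (147 against 161), but not after SN-38 (228 against 218). Neither count was split by class. The set with actinomycin D alone gave 7 vlincRNA sites at 2 h and 7 at 6 h, against 14 without treatment, 7 after DMSO for 2 h and 20 after DMSO for 6 h. Its values thus overlapped at 2 h and stood below DMSO at 6 h, with 1 sample each and no test.

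By locus, 22 of the 33 vlincRNA loci had lower and 6 higher numbers of sites after 2 to 6 h of actinomycin D than at 0 h, and over all 410 loci 163 were lower and 185 higher. The exact permutation test called 0 of 33 vlincRNA loci, where 0% of all 410 loci were called. At an unadjusted p under 0.05 there was 1 of the 33 vlincRNA loci, which was lower, and 32 of all 410 loci, 20 lower and 12 higher. The smallest p that the arrangements within first agents allow is 0.00463, and 38 loci would have had to reach it for any call. The vlincRNA locus under 0.05 was LINC00534, with 9, 9, 8, 3 and 1 sites at 0 h after DMSO, talazoparib, cyclophosphamide, etoposide and SN-38. Its mean was 6.00 sites at 0 h and 1.33 later (within-agent difference −4.57, p = 0.00463 by the exact permutation test, adjusted p = 0.146), and after DMSO it had 9, 7, 3, 2 and 0 sites at 0, 1, 2, 4 and 6 h. In the set with actinomycin D alone it had 5 sites at 2 h and 5 at 6 h, against 6 without treatment, 3 after DMSO for 2 h and 8 after DMSO for 6 h, so it was not lower at both times there. The SI locus had 0 to 8 sites at 0 h and 0 to 1 later (difference −2.87, exact p = 0.0556, adjusted p = 0.599). The LINC02476 locus had 0 to 5 and 0 to 2 (difference −1.40, exact p = 0.0556, adjusted p = 0.599). The SEMA3D locus had the opposite sign, with 0 to 2 sites at 0 h, 1 to 7 at 2 h, 4 and 8 at 4 h and 0 to 1 at 6 h (difference 1.9, exact p = 0.278, adjusted p = 1).

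The alpha-amanitin chase gave 34, 10, 4 and 11 vlincRNA sites at 0, 2, 4 and 6 h after DMSO, and 3, 3, 0 and 0 after etoposide. Alpha-amanitin alone gave 17 at 2 h and 7 at 6 h, and DMSO for 2 h gave 15. No later value of the chase lay above the 0 h value of its own first agent. Pooled over first agents, which differ at 0 h, the 3 samples without alpha-amanitin (3, 15 and 34) overlapped the 8 with it (0 to 17), and the test of these 11 samples had no block. With the chase samples alone, 2 at 0 h against 6 later within first agent, 0 vlincRNA loci were called. That design has 16 arrangements, too few for any locus to reach an unadjusted p under 0.05, so it decides nothing. Of the 33 vlincRNA loci, 13 were lower and 5 higher with alpha-amanitin, against 131 lower and 116 higher of all 410. The exact permutation test called 0 of 33 vlincRNA loci, where 0% of all loci were called. At an unadjusted p under 0.05 there were 0 vlincRNA loci and 2 of all loci, and 100 loci would have had to reach the smallest p that the design allows, 0.0121. LINC00534 had 0 to 10 sites without and 0 to 6 with alpha-amanitin (difference −2.96, exact p = 0.279, adjusted p = 1).

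In the time course the numbers of vlincRNA and intronic sites parted. They were not split by class, while vlincRNA sites were mostly unannotated (252 of 368) and intronic ones mostly annotated (2209 of 2847). Both elements hold sites of both classes, so a split was possible but was not made. These counts therefore do not separate element from class. The mean number of vlincRNA sites was 18.9 ± 12.7 (SD, n = 8) at 6 and 12 h and 18.3 ± 10.2 (n = 12) at 24 to 48 h. The mean number of intronic sites was 77.9 ± 13.4 and 327.8 ± 120.7, and it was higher at the late times for all 4 agents. The vlincRNA percent of a sample's sites was lower at the late times for all 4, with means of 11.8 ± 7.20 and 4.34 ± 2.79. The columns labelled DMSO had 28, 14, 21, 21 and 23 vlincRNA sites at 6, 12, 24, 36 and 48 h, those labelled imatinib 42, 16, 34, 31 and 22, those labelled etoposide 27, 14, 28, 11 and 11, and those labelled romidepsin 5, 5, 4, 7 and 6. The columns labelled romidepsin lay below every other column of the time course.

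The exact permutation test of late against early times called 0 of 33 vlincRNA loci, where 5.12% of all 410 loci were called. At an unadjusted p under 0.05 there were 2 vlincRNA loci, 1 lower and 1 higher, and 71 of all loci, 68 of them higher. By sign, 14 vlincRNA loci were lower and 11 higher late, with 8 equal, against 67 lower and 265 higher of all loci. LINC00534 was the lower one, with 0 to 15 sites early (mean 6.38) and 0 to 9 late (mean 2.75; difference −3.63, exact p = 0.0112, adjusted p = 0.105). It had 15, 7, 5, 6 and 9 sites over the columns labelled DMSO and 12, 10, 6, 3 and 4 over those labelled imatinib, but 5 and 2 at 6 h and 0 at the 4 later times in those labelled etoposide and romidepsin. The higher one, named after its values were seen, was a locus of 3 sites at chr8:106002296-106002358 (minus) in the lncRNA gene ZFPM2-AS1, with 0 sites in all 8 early samples and 0 to 3 late (difference 1.17, exact p = 0.0108, adjusted p = 0.105). The CDH18 locus had 0 to 2 sites early and 0 to 9 late (difference 2.17, exact p = 0.0520, adjusted p = 0.296).

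**Figure D5:**
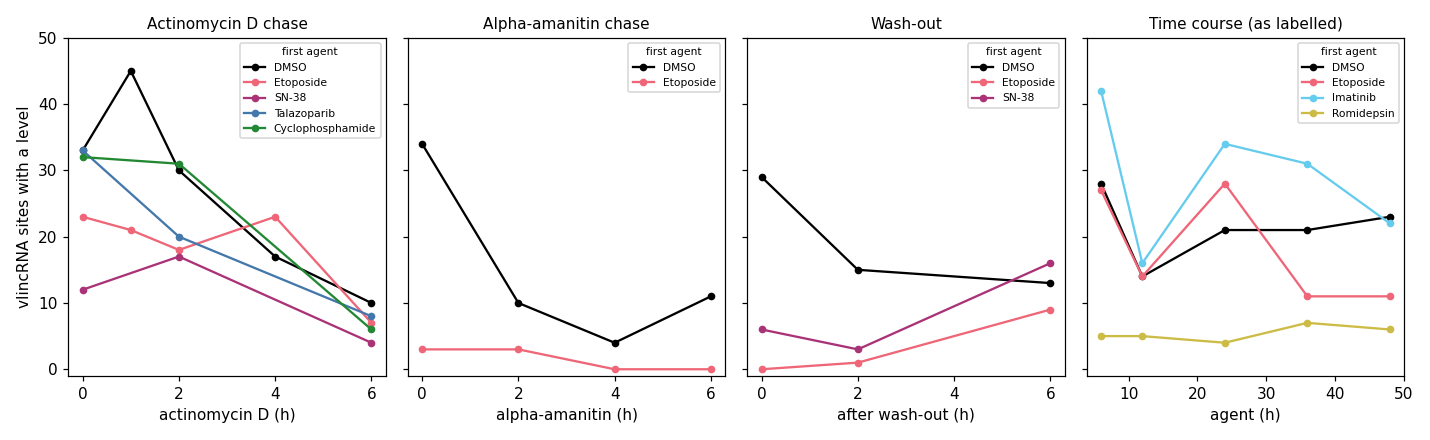
Number of vlincRNA sites with a level (y axis) against time in hours in the actinomycin D chase, the alpha-amanitin chase, the wash-out set and the time course, 1 point per sample, with lines joining samples of the same first agent. At 6 h of actinomycin D the 5 samples lie between 4 and 10, and time course lines are named by the columns' labels.

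In the wash-out set, DMSO gave 29, 15 and 13 vlincRNA sites at 0, 2 and 6 h, SN-38 6, 3 and 16, and etoposide 0, 1 and 9. The 0 and 2 h values after etoposide and SN-38 lay below every DMSO value. At 6 h the etoposide value was still below them and the SN-38 value lay between them. Intronic sites numbered 52 to 97 after DMSO, 82 to 162 after SN-38 and 30 to 49 after etoposide. LINC00534 had 6 to 10 sites after DMSO, 1, 3 and 12 at 0, 2 and 6 h after SN-38, and 0, 0 and 1 after etoposide. In the pretreatment set the total number of sites showed no such order: DMSO followed by 6 h of DMSO gave 18 vlincRNA sites, by 6 h of SN-38 20 and by 6 h of etoposide 27. LINC00534 had 5, 0 and 1 sites in these 3 samples, so its values were lower with SN-38 and etoposide there. In the wash-out set its SN-38 value at 6 h, 12, was above every DMSO value. These values were read after the data had been seen and, with 1 sample a condition, carry no test.

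In the engineered lines, 8 pairs of the same line and day were compared between doxycycline and water. Doxycycline samples had 0 to 13 vlincRNA sites (3.50 ± 4.34, SD, n = 8) and water samples 0 to 9 (3.75 ± 3.49, n = 8), with doxycycline lower in 3 pairs, higher in 3 and equal in 2. The exact permutation test called 0 of 33 vlincRNA loci, where 0% of all 410 loci were called, and 0 loci had an unadjusted p under 0.05. The smallest p that 8 pairs allow is 0.00781, and 65 loci would have had to reach it for any call. The SI locus, the most detected one in these lines, had 0 to 4 sites with doxycycline and 0 to 7 with water (difference −0.75, exact p = 0.625, adjusted p = 1).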

How the data were processed

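RNA-seq libraries were sequenced as paired 150-base reads. After trimming, the authors mapped reads to GRCh38 by TopHat2 (2.1.1), discarded PCR duplicates using Picard (2.0.1) and called sites in each sample by REDItools, RED-ML and SPRINT. The deposited values are fractions from 0 to 1, the editing levels that the authors averaged over the methods that found the site in that sample. Variants and sites in repeats or of low mappability were removed by the authors, who kept sites seen in at least 2 samples with a highest level above 0.2. For unannotated sites, which detection methods were asked for depended on the genomic element. Tools and versions follow the submitters' processing notes. The 34 columns of other samples were not used. Samples were grouped by their labels and into library sets by identifiers in the supplement.

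A level above 0 counted as found. Numbers of sites per locus were compared by two-sided exact permutation tests over samples, with the smaller tail doubled, within line and day (doxycycline), first agent (actinomycin D chase) or agent (time course), with no block for alpha-amanitin, and adjusted by Benjamini-Hochberg at 0.05. The test was checked on simulated counts with changes larger than any seen in vlincRNA loci, so the check gives no measure of power here. The named loci were those with 10 or more sites or a call, and the named sites the 5 with a level in most samples. The members and lists were chosen with earlier results of these data known. Inverted matches came from blastn 2.17.0 and genes from GENCODE release 44. Python 3.11.15, numpy 2.4.6, scipy 1.17.1 and pandas 2.3.3 were used. The distance to the nearest repeat was not run because the genome sequence used marks none.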

Additional observations from a re-analysis of the deposited data

Results flagged for a closer look

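In the doxycycline group of 8 samples, the AsiSI line at 13 days stood apart with 13 vlincRNA sites with a level, against 0 to 6 in the other 7. This was 1 outlying sample among 21 combinations of a group and a measure, and chance gives about 1 in 20. In the wash-out set the change from 0 to 6 h was −16 vlincRNA sites after DMSO but 9 after etoposide and 10 after SN-38. In the time course the change from 6 to 48 h was −5 in the columns labelled DMSO and 1 in those labelled romidepsin. These differences in sign rest on 1 sample a time and were not tested.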

How the results depend on the processing

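Of the values of the vlincRNA results under alternatives, 66 kept their call or, without a test, moved by less than the spread over samples or the interval, and 3 did not. Within that spread, the median number of vlincRNA sites per sample was 8 with 1 site per run against 14, and the median difference between unannotated vlincRNA and intronic sites was −0.12 percentage points without LINC00534 against 0.33. With 1 site per run of neighbours, 1 vlincRNA locus, LINC00534, was called in the time course among 145 loci tested (difference −1.21 sites, adjusted p = 0.0424 by the exact permutation test), where none was called with all sites. The share of sites with an inverted match was 62.9% with 1 site per run and 62.5% with matches of at least 100 bases. Over all loci of the list, 21 were called in the time course under the main setting. The count was 7 with a level of at least 0.2, 5 by percent of the sample's sites and 13 with 1 site per run. It was 0 at 36 and 48 h against 6 and 12 h, and 0 without etoposide and romidepsin. The last setting leaves 100 arrangements against 10000, too few for a call unless many loci tie at the smallest p, so its 0 shows no dependence. The 36 and 48 h setting leaves 1296 arrangements. By the exact permutation test, 78 loci had an unadjusted p under 0.05 there, against 71 in the main setting. Its 0 likewise says little about dependence. Without blocks, 11 loci of the list were called for actinomycin D, against 0. Leaving out a pair, a first agent or a control called 0 vlincRNA loci in each case. These settings left 45 to 144 arrangements, so a call was hardly possible and the kept 0 says little about stability. Without LINC00534, the locus with most sites, annotated vlincRNA sites were below intronic ones in 73 of 96 samples, and the unannotated ones in 49. By replicate number, no paired analysis was possible because the samples that share one belong to groups that were not compared, while line and day, first agent or time course agent served as blocks in 3 of the 4 tests. The unknown read depth at each site, the single sample per condition and the filters on the list limit all counts.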
